A study of Mus musculus with 18 samples.

Results

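Spinal cords, labelled as whole, of 10-month-old mice were compared by genotype. Mice with a human ATXN2 knock-in with a tract of 33 glutamines (genotype hATXN2-Q33) were set against mice with a human ATXN2 knock-in with 22 glutamines (hATXN2-Q22). The comparison comprised 6 of the 18 libraries in the series, 3 Q33 and 3 Q22, each from 1 untreated, heterozygous animal without human TDP-43. The lengths thus differ while a human knock-in is present in both groups. Cords heterozygous for a Q33 or a Q22 knock-in and for a human TDP-43 knock-in (Q33;TDP-43 and Q22;TDP-43), cords heterozygous for the human TDP-43 knock-in alone, and cords of non-transgenic C57BL/6 animals (NTg), all of the same age and untreated, are given where they bear on a result, with 3 animals each. The sources used here do not give the locus and promoter of the knock-ins, the number of founder lines, sex, litter, strain of the knock-ins or time of collection. The counts are those of mouse genes, so the tract itself is not seen in them.

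ATXN2 is a cytoplasmic RNA-binding protein that binds poly(A)-binding protein and enters stress granules. Its glutamine tract is short in most people, long repeats cause spinocerebellar ataxia type 2, and intermediate repeats raise the risk of amyotrophic lateral sclerosis (ALS), a disease in which TDP-43, a nuclear RNA-binding protein, leaves the nucleus of motor neurons. The comparison asks how the cord's RNA differs between the tract lengths in the absence of human TDP-43.

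The mouse gene differs from the human one at the place that defines the groups, and the sequence is shown for that reason. The stretch below lies in exon 1 of Atxn2 at chr5:121712086-121712145 on the plus strand of GRCm38, taken from GENCODE's main transcript. It begins at an in-frame ATG codon where the human protein holds its tract, and glutamine codons are in capitals.
Atxn2: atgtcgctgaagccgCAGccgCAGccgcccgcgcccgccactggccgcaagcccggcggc
The 20 codons hold 2 glutamine codons, with a longest unbroken run of 1. The longest run in the whole mouse coding sequence is 3. A repeat of either length studied here therefore comes from the knock-in and not from the mouse gene.

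Depth was similar in the groups. Q33 libraries held 23762543, 22949160 and 26329894 gene counts, and Q22 libraries held 22169692, 19796403 and 23852604. The libraries were not matched in other respects. Levels are given as CPM, counts divided by library size after TMM scaling. The summed level of 4 Y-linked genes was 175, 206 and 2.45 CPM in Q33 cords and 200, 200 and 162 CPM in Q22 cords. Xist, the RNA of the inactive X, stood at 3.12, 5.08 and 473 CPM in Q33 cords and at 5.62, 99.8 and 4.82 CPM in Q22 cords. Q33 replicate 3 thus had the signal of a female, and Q22 replicate 2 had a Y signal together with Xist. Hox genes of paralog groups 10 and 11, which mark lumbar and sacral cord, were nearly absent from Q33 replicate 1 but present in the other Q33 cords: Hoxc10 had 0.385, 34.6 and 33.7 CPM in Q33 cords against 0.661, 0.296 and 27.5 CPM in Q22 cords. The summed level of these Hox genes was 1.33, 72.5 and 61.9 CPM in Q33 cords and 1.94, 1.83 and 44.1 CPM in Q22 cords, so 3 of the 6 libraries nearly lack the lumbar code, which goes against the label of a whole cord. Mitochondrial ribosomal RNA took 19.5%, 23.4% and 18.3% of counts in Q33 cords and 19.6%, 20.1% and 20.7% in Q22 cords. Markers of neurons, astrocytes, oligodendrocytes and microglia were present in each of the 6 libraries.

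**Figure D1:**
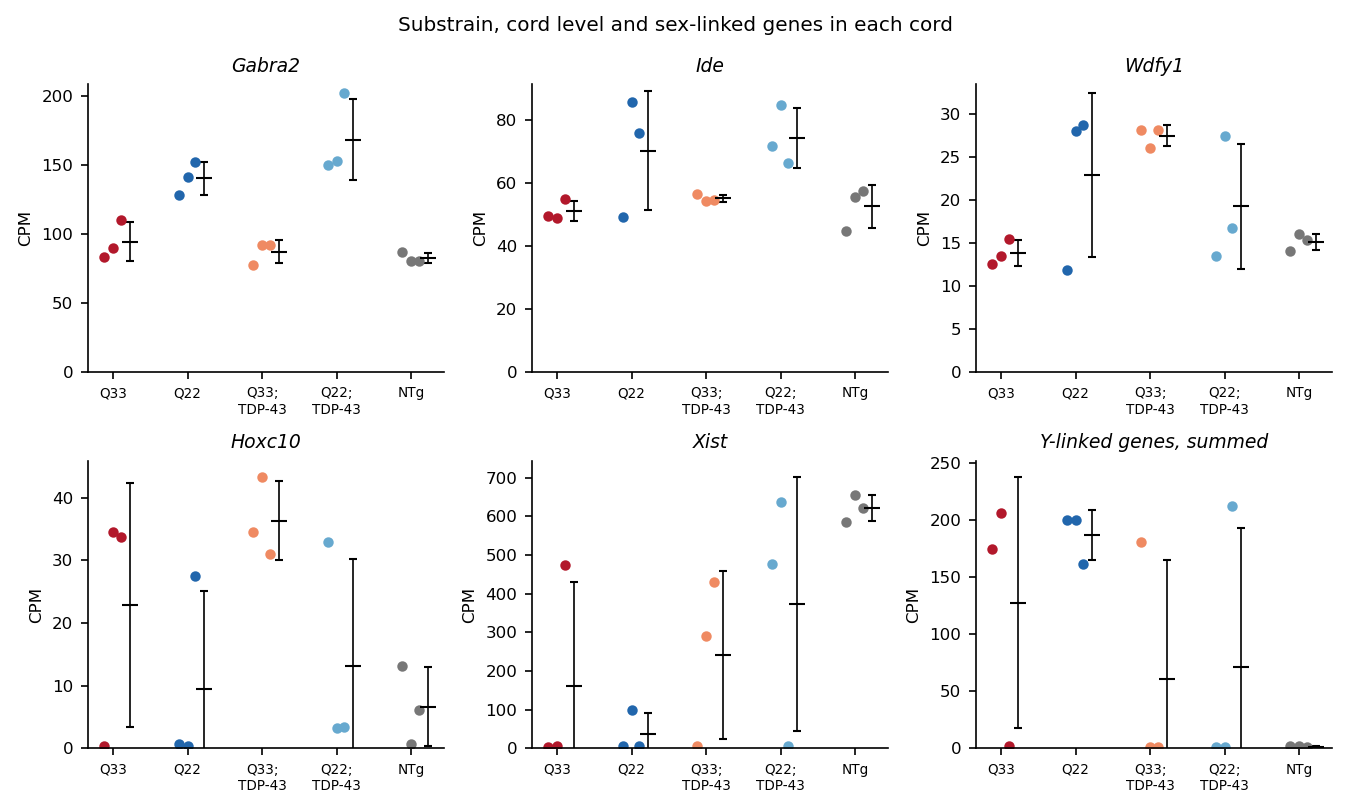
CPM of Gabra2, Ide, Wdfy1, Hoxc10, Xist and the sum of 4 Y-linked genes in each cord of 5 genotypes; points are animals, bars the mean and SD of 3. Gabra2 separates the groups, while Ide and Wdfy1 are low in 1 Q22 cord, and Hoxc10, Xist and the Y-linked genes differ within the groups.

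No gene passed the test between Q33 and Q22 cords. Of 20635 genes tested with edgeR's quasi-likelihood test, 0 were higher and 0 were lower in Q33 at an adjusted p under 0.05 (0% of genes tested in either direction). At an unadjusted p under 0.05 there were 442 genes (2.14%), 219 of them higher (1.06%) and 223 lower (1.08%), where 1032 would be expected by chance. Small p-values were thus rarer than if no gene differed and p were evenly spread, which limits what the absence of calls shows. DESeq2's Wald test called 1 gene and, without the filter on low counts, edgeR called 70. The smallest adjusted p was 0.11, for Dbp, and that of every other gene was 1. The libraries did not overlap for 789 genes higher in Q33 (3.82%) and for 853 lower (4.13%).

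Differences between cords of the same genotype and of different genotypes covered overlapping ranges. The root mean square log2 difference over genes ran from 0.357 to 0.386 between pairs of Q33 cords, from 0.382 to 0.548 between pairs of Q22 cords, and from 0.307 to 0.455 between a Q33 and a Q22 cord. The closest pair of the 6 cords was Q33 replicate 2 with Q22 replicate 3, and the most distant was Q22 replicate 1 with Q22 replicate 2.

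The absence of calls bounds the size of the difference for most genes but not for all. Among the 16641 genes whose mean reached 1 CPM in a group, an interval could be computed for 15012, with a median standard error of 0.161 on the log2 scale. The 95% interval lay within 2-fold in either direction for 89.2% of these genes, and within 1.5-fold for 64.6%. For genes of at least 10 CPM the shares were 98.8% and 92.7% of 8419 genes. The median absolute log2 fold change was 0.09 from 1 CPM and 0.06 from 10 CPM. Data were simulated with the same depths and spread, and each gene had a common mean in all groups apart from the genes changed in Q33. The test of Q33 minus Q22 then found 33 of 80 genes that were given a 1.5-fold change. It found 56 of 80 at 2-fold and each of 40 at 4-fold, and it made 8 false calls in 20586 genes. All these genes were changed at once and drawn independently, without the differences in sex and cord level of the real cords. A gene that changes alone meets a stricter adjusted threshold, so these shares are not its chance of a call. Even so, a 1.5-fold change often went uncalled.

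**Figure D2:**
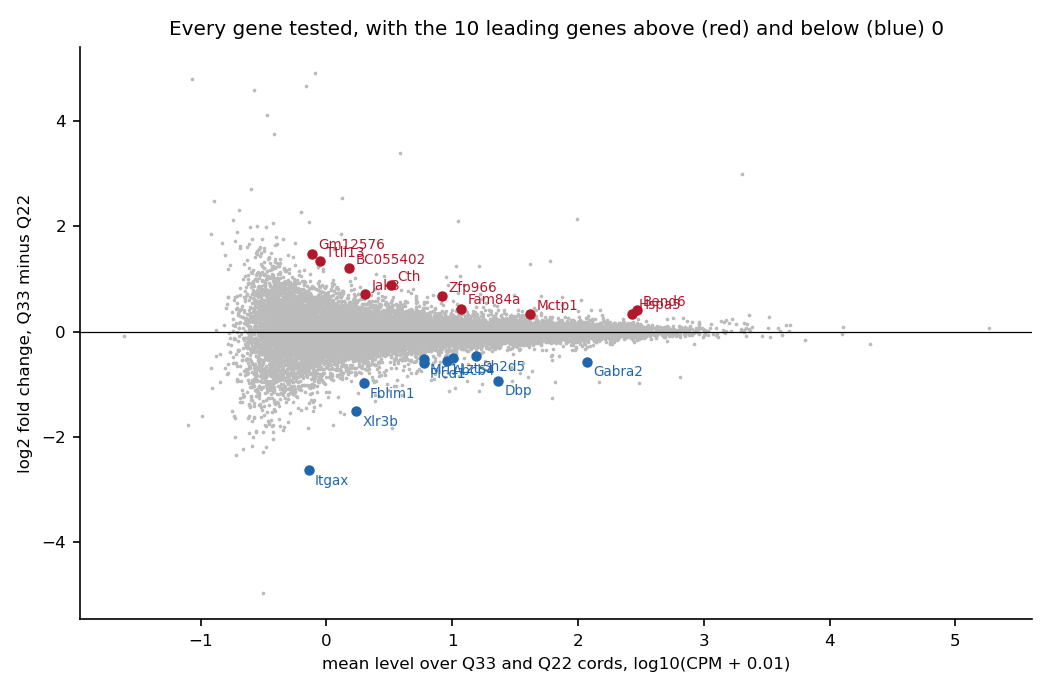
The log2 fold change of each tested gene, Q33 minus Q22, against its mean level over the 6 cords on a log10 axis; coloured points are the 10 genes with the smallest p on either side of 0 among genes of at least 1 CPM. The cloud narrows around 0 with rising level, and Dbp at -0.93 lies below it.

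The mouse counterparts of the knock-in genes gave no call. Mouse Atxn2 had 175, 176 and 190 CPM in Q33 cords and 176, 186 and 185 CPM in Q22 cords, with overlapping libraries. The log2 fold change was -0.02 with a 95% interval from -0.19 to 0.15. Tardbp, the mouse gene of TDP-43, had 121, 115 and 119 CPM in Q33 cords against 110, 107 and 110 CPM in Q22 cords. Each Q33 cord lay above each Q22 cord, by a log2 fold change of 0.12 ± 0.07 (SE), which did not pass the test (edgeR adjusted p = 1). NTg cords, at 127, 127 and 124 CPM, lay above both groups.

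The partners of ATXN2 stayed close to 0 as a list. It holds 25 tested genes of poly(A) tail binding, decapping and stress granules, 0 of which passed at an adjusted or an unadjusted p under 0.05. Their log2 fold changes ran from -0.13 to 0.09 with a median of 0.01, against -0.01 over all genes tested. Pabpc1, the cytoplasmic poly(A)-binding protein, had 146, 136 and 132 CPM in Q33 cords and 139, 153 and 135 CPM in Q22 cords. Atxn2l, the paralog of Atxn2, differed by 0.03 and G3bp1, a stress granule scaffold, by 0.04 on the log2 scale. Among 9 polyglutamine disease genes, 32 ALS genes, 22 genes of TDP-43 and related RNA-binding proteins and 24 long neuronal genes that TDP-43 is known to bind, again 0 passed either threshold, with medians of 0.00, 0.03, 0.03 and -0.04.

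The gene that came nearest to the threshold was Dbp, a transcription factor of the PAR bZIP family that is an output of the circadian clock. Dbp had 18.1, 16.4 and 13.2 CPM in Q33 cords and 31.2, 29.5 and 30.4 CPM in Q22 cords. The groups were far apart, and the Q22 cords lay close to the NTg cords, which had 29.3, 28.3 and 29.7 CPM. The means were 15.9 ± 2.49 CPM in Q33 cords and 30.4 ± 0.842 CPM in Q22 cords (SD, n = 3 each). The log2 fold change was -0.93 ± 0.15 (SE), with an unadjusted p of 5.1e-06 and an adjusted p of 0.11 by edgeR, ranging from 2.4e-08 to 1 over the alternatives. DESeq2's Wald test called it, with an adjusted p of 1.8e-05, and it was the only gene which that test called. In the other animals, Dbp had 22.8, 25.0 and 20.7 CPM in Q33;TDP-43 cords and 35.3, 26.5 and 27.7 CPM in Q22;TDP-43 cords. There too the libraries did not overlap and the sign was the same, but the log2 fold change of -0.39 ± 0.14 did not pass (edgeR adjusted p = 0.084). Cords with human TDP-43 alone, which carry no ATXN2 knock-in, had 20.1, 23.3 and 30.3 CPM. Their range overlaps both the Q33;TDP-43 and the Q22;TDP-43 cords.

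The clock turns on a feedback loop. Arntl pairs with Clock or Npas2 and binds E-boxes (CACGTG) in the genes of its own repressors, the Per and Cry genes, and of Nr1d1 and Dbp. Dbp, Tef and Hlf bind D-boxes (TTATGTAA), and Nr1d1 in turn represses Arntl. Clock genes cycle in tissues outside the brain's central pacemaker, the spinal cord among them.

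Of 18 tested clock genes 0 passed at an adjusted p under 0.05. At an unadjusted p under 0.05 there were 2 higher and 4 lower, against 1.06% and 1.08% of all genes. The libraries did not overlap for 2 higher and 6 lower, against 3.82% and 4.13% of all genes. Of the 18 genes 13 had a negative sign, and Arntl, Npas2 and Nfil3 (0.40) were among the positive ones. Arntl, an activator, had 13, 13.7 and 17.4 CPM in Q33 cords and 12.4, 9.88 and 11.4 CPM in Q22 cords, a log2 fold change of 0.39 ± 0.13. Npas2 had 8.34, 9.98 and 11.2 CPM in Q33 cords and 7.60, 5.68 and 7.50 CPM in Q22 cords, a log2 fold change of 0.51 ± 0.16. For both genes each Q33 cord lay above each Q22 cord, whereas Clock, the other partner of Arntl, had overlapping libraries.

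The negative members hold targets of these activators. Tef, a relative of Dbp, had 105, 116 and 96.6 CPM in Q33 cords against 121, 136 and 130 CPM in Q22 cords, a log2 fold change of -0.29 ± 0.09. Nr1d1, the nuclear receptor that represses Arntl, had 25.6, 25.2 and 21.3 CPM in Q33 cords against 27.8, 30.4 and 34.2 CPM in Q22 cords, a log2 fold change of -0.36 ± 0.12. Per3, a Period gene, had 42.3, 49.7 and 43.8 CPM in Q33 cords against 49.8, 61.5 and 60.9 CPM in Q22 cords, a log2 fold change of -0.34 ± 0.13. The groups did not overlap for any of these 3 genes, though for Per3 the highest Q33 cord and the lowest Q22 cord nearly met. Per1 at -0.21, Per2 at -0.23, Nr1d2 at -0.27 and Ciart at -0.39 had the same sign and a p of 0.05 or more, and Hlf stood at -0.11 and Cry1 at -0.09.

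The clock genes in TDP-43 knock-in cords, which share no library with the first comparison, gave a mixed picture. Per3 was lower in Q33;TDP-43 than in Q22;TDP-43 cords by a log2 fold change of -0.62 (edgeR adjusted p = 0.0049) and Per1 by -0.49 (adjusted p = 0.024), while Arntl stood at -0.21 and Npas2 at -0.28, opposite in sign to the cords without TDP-43. Tef differed by -0.07 and Nr1d1 by -0.24 there, and neither passed. The difference between the tract length effects without and with TDP-43 passed for 0 of the 18 clock genes. Within the Q33 and Q22 cords, leaving out the pair of libraries with Xist left 2 of each group, and then 0 clock genes were higher and 1 was lower at an unadjusted p under 0.05. Of all 21153 genes tested in that setting, 389 had such a p in either direction. Clock genes change with the hour of the day, and the time of collection is not given. Its part in these differences cannot be told apart from that of tract length and was not tested.

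**Figure D3:**
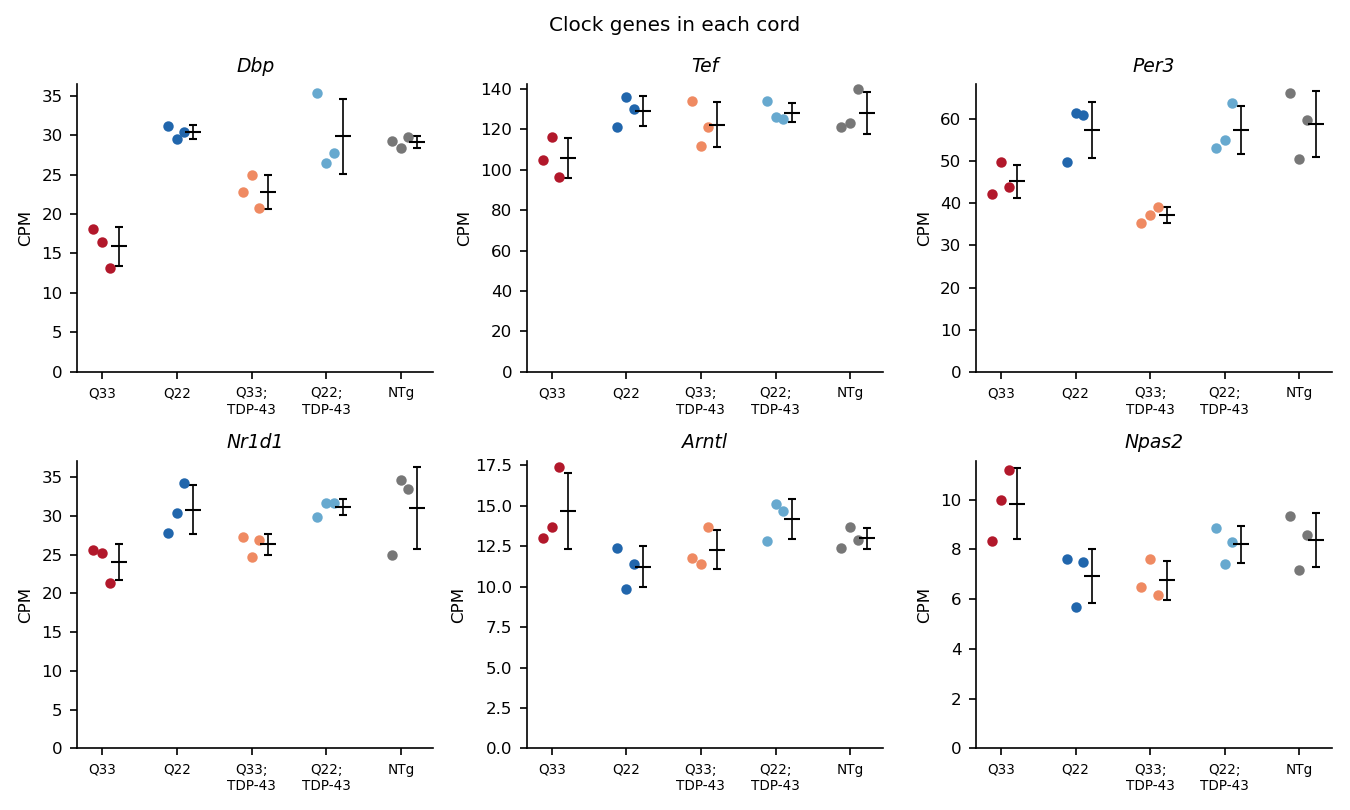
CPM of Dbp, Tef, Per3, Nr1d1, Arntl and Npas2 in each cord of 5 genotypes; points are animals, bars the mean and SD of 3. Q33 cords lie below Q22 cords for Dbp, Tef, Per3 and Nr1d1 and above them for Arntl and Npas2.

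The promoters of 4 of the 13 clock genes with a negative sign are shown, and no rule chose them. Ciart is among them with an unadjusted p of 0.05 or more, while Nr1d1, with a p under 0.05, is not shown. The windows thus do not stand for the whole list. Each is the 250 bases before the gene's start in RefSeq's GRCm38.p6 annotation, 5′ to 3′ on the gene's strand, with E-boxes (CACGTG) and D-boxes (TTATGTAA) in capitals. Dbp lies at chr7:45704997-45705246 (plus strand), Tef at chr15:81811164-81811413 (plus), Ciart at chr3:95882229-95882478 (minus) and Per3 at chr4:151044666-151044915 (minus). In the annotation used for the counts, Tef begins at 81802421 and Dbp at 45705088. The Tef window, from the downstream of the starts that RefSeq's table gives, thus lies inside the counted gene, and so does most of the Dbp window.
Dbp: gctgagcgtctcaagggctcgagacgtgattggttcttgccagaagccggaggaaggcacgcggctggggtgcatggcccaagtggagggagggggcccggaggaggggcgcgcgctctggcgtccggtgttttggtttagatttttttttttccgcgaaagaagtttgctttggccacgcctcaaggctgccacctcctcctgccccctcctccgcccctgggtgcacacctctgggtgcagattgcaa
Tef: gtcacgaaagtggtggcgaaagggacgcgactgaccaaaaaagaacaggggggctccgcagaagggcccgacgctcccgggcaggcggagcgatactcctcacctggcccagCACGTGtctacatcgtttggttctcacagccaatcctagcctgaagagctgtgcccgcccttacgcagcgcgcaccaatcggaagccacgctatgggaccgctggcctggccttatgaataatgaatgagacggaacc
Ciart: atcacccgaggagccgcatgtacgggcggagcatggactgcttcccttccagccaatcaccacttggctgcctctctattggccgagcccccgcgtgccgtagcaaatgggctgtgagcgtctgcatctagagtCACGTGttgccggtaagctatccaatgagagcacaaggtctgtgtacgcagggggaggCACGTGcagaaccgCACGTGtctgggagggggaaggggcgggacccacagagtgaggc
Per3: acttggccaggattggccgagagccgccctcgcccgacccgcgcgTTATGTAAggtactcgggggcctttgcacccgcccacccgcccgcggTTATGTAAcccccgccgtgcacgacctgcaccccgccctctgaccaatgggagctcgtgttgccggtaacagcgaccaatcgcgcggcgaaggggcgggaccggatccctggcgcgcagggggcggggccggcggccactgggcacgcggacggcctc
The Tef window holds 1 E-box, the Ciart window 3 and the Per3 window 2 D-boxes. The Dbp window holds neither motif, which says only that these letters are not in it. An E-box was found in such windows of 5 of the 15 clock genes matched in RefSeq's table, namely Bhlhe41, Ciart, Cry1, Per1 and Tef, and in 6.02% of all 32851 promoters. A D-box was found for 1 of the 15, Per3, and in 0.819% of all promoters. A clock gene was counted if any of its listed starts had the motif, whereas the percentages are of single promoters. The counts and the percentages are therefore not alike. Both strands were searched, and the motifs share no overlap in these windows. Of the 5 genes with an E-box, Tef alone had an unadjusted p under 0.05.

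The other genes that leaned lowest or highest were chosen as the 10 with the smallest p on either side, since none passed. Itgax, which encodes the integrin CD11c of dendritic cells and of microglia in disease, had 0.214, 0.0899 and 0.268 CPM in Q33 cords against 1.42, 1.88 and 0.419 CPM in Q22 cords. The limit that a count of 0 allows (3 counts) was 0.114 to 0.131 CPM in Q33 cords, so the Q33 values are near the limit of detection, and the log2 fold change of -2.63 ± 0.62 rests on few reads. Of 21 genes of disease-associated microglia, Itgax and Igf1 were lower at an unadjusted p under 0.05 and 0 were higher, against 1.08% and 1.06% of all genes, with a median of -0.13. The microglial receptor gene Trem2 had 4.88, 3.06 and 3.44 CPM in Q33 cords and 3.87, 5.04 and 3.61 CPM in Q22 cords, which overlap. For P2ry12, a marker of resting microglia, the log2 fold change was -0.08.

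Gabra2, a GABA-A receptor subunit, had 83.3, 89.8 and 110 CPM in Q33 cords against 128, 141 and 152 CPM in Q22 cords, a log2 fold change of -0.57 ± 0.14 (edgeR adjusted p = 1). In the TDP-43 knock-ins, Gabra2 had 77.3, 91.8 and 92.2 CPM in Q33;TDP-43 cords and 150, 153 and 202 CPM in Q22;TDP-43 cords. The log2 fold change of -0.95 passed there (edgeR adjusted p = 0.00057). The difference between the tract length effects without and with TDP-43, at 0.38, did not pass (edgeR adjusted p = 0.38). NTg cords had 86.9, 80.5 and 80.3 CPM, below each Q22 cord, and cords with human TDP-43 alone had 97.6, 139 and 136 CPM. Gabra2 is known to be expressed at a lower level in the C57BL/6J substrain, which carries an intronic variant of the gene. It belongs to a list of genes known to differ between C57BL/6 substrains, of which 10 were tested. At an unadjusted p under 0.05, 3 were lower and 0 higher, against 1.08% and 1.06% of all genes. The list had 4 positive members and a median of 0.00, and Mmrn1 at 1.20 and Entpd4 at 1.86 lay farthest on the higher side.

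The other members of the list that had an unadjusted p under 0.05, Ide and Wdfy1, differed among Q22 animals. Ide, which encodes the insulin-degrading enzyme, had 49.6, 48.9 and 54.8 CPM in Q33 cords and 49.3, 85.7 and 75.8 CPM in Q22 cords. Wdfy1 had 12.5, 13.5 and 15.5 CPM in Q33 cords and 11.9, 28.1 and 28.7 CPM in Q22 cords. In both genes Q22 replicate 1 lay with the Q33 and NTg cords, apart from the other Q22 cords. Nnt, which C57BL/6J carries with a deletion, had 2.61, 3.15 and 2.41 CPM in Q33 cords and 2.55, 3.21 and 2.43 CPM in Q22 cords. The part of the animals' genetic background in the differences between Q33 and Q22 was not tested.

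The remaining 7 genes that leaned lower had log2 fold changes from -1.52 to -0.47, each with an edgeR adjusted p of 1. Fblim1, a filamin-binding adaptor, had 1.5, 1.12 and 1.34 CPM in Q33 cords against 2.41, 3.16 and 2.26 CPM in Q22 cords. NTg cords had 1.19, 1.72 and 1.2 CPM, below each Q22 cord. Abcb4, a phospholipid transporter, had 7.27, 7.64 and 7.19 CPM in Q33 cords against 10.4, 9.78 and 12.3 CPM in Q22 cords. NTg cords had 8.67, 9.9 and 7.96 CPM, above each Q33 cord. Lzts1 differed by -0.50, Plcd1, a phospholipase C, by -0.60, Mri1, an enzyme of methionine salvage, by -0.53, Sh2d5 by -0.47 and the X-linked Xlr3b by -1.52. For each of these genes the NTg mean lay between the Q33 and Q22 means. Xlr3b has close copies on the X chromosome, so its counts are uncertain.

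Cth led on the higher side. It encodes cystathionine gamma-lyase, which makes cysteine from cystathionine. Cth had 3.38, 4.09 and 5.24 CPM in Q33 cords against 2.46, 2.67 and 1.8 CPM in Q22 cords. Its log2 fold change was 0.88 ± 0.20, with an unadjusted p of 0.00031 and an adjusted p of 1 by edgeR. The same gap stood in the TDP-43 knock-ins, where Cth had 4.43, 4.58 and 4.07 CPM in Q33;TDP-43 cords and 2.66, 2.39 and 2.40 CPM in Q22;TDP-43 cords and passed at a log2 fold change of 0.81 (edgeR adjusted p = 0.013). NTg cords, at 2.22, 2.81 and 2.45 CPM, lay with the Q22 cords.

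Hspa5, the chaperone BiP of the endoplasmic reticulum, had 274, 279 and 353 CPM in Q33 cords against 236, 263 and 216 CPM in Q22 cords, a log2 fold change of 0.34 ± 0.10. In the TDP-43 knock-ins it had 328, 300 and 306 CPM in Q33;TDP-43 cords and 231, 265 and 234 CPM in Q22;TDP-43 cords and passed at 0.36 (edgeR adjusted p = 0.026). Cords with human TDP-43 alone, at 304, 322 and 300 CPM, lay with the Q33;TDP-43 cords. NTg cords, at 250, 227 and 254 CPM, lay with the Q22 cords. The unfolded protein response, which raises such chaperones when misfolded proteins gather in the endoplasmic reticulum, was represented by 23 tested genes. Of these 0 passed, and 3 were higher and 0 lower at an unadjusted p under 0.05, against 1.06% and 1.08% of all genes, with a median of 0.06. Hsp90b1 had 630, 557 and 665 CPM in Q33 cords against 549, 529 and 474 CPM in Q22 cords, a log2 fold change of 0.25 ± 0.08. Calr, the chaperone calreticulin, differed by 0.24 ± 0.10 with overlapping libraries. The 3 are lumenal chaperones, and the summed level of the list was 2597, 2332 and 2699 CPM in Q33 cords against 2390, 2236 and 2129 CPM in Q22 cords, so 1 Q33 cord lay below the highest Q22 cord. With TDP-43, Hsp90b1 differed by 0.09 and Calr by 0.19, and neither passed (edgeR adjusted p = 0.51 and 0.21). There 2 genes of the list passed as higher and 2 as lower, against 6.67% and 6.17% of all genes. Of 18 heat shock genes, which serve the cytosol, 0 passed either threshold, and 16 had a positive sign with a median of 0.12.

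Bend6, which encodes a BEN domain repressor of Notch signalling, had 308, 372 and 321 CPM in Q33 cords against 249, 258 and 246 CPM in Q22 cords, a log2 fold change of 0.41 ± 0.12. It was also higher with TDP-43, by 0.63 (edgeR adjusted p = 0.003). NTg cords had 276, 320 and 284 CPM, above each Q22 cord. The other 7 genes on the higher side had log2 fold changes from 0.33 to 1.48. Jak3, a kinase of cytokine receptors, had 2.52, 2.52 and 2.45 CPM in Q33 cords against 1.37, 1.93 and 1.30 CPM in Q22 cords. NTg cords had 2.42, 1.98 and 2.27 CPM of Jak3, above each Q22 cord. Mctp1, a calcium-binding membrane protein, had 42.6, 46.6 and 50.5 CPM in Q33 cords against 37.5, 32.8 and 40.8 CPM in Q22 cords. NTg cords, at 40.4, 42.3 and 41.9 CPM of Mctp1, lay below each Q33 cord. Gm12576, BC055402, Zfp966, Fam84a and Ttll13 completed the 10, with differences of 1.48, 1.21, 0.68, 0.44 and 1.34. In that order, means were 1.12, 2.11, 10.2, 13.6 and 1.26 CPM in Q33 cords and 0.4, 0.91, 6.35, 10 and 0.492 CPM in Q22 cords. NTg means were 1.05, 1.27, 10, 13.7 and 0.645 CPM. They lay nearer to Q33 for Gm12576, Zfp966 and Fam84a and nearer to Q22 for BC055402 and Ttll13. Gm12576, BC055402 and Ttll13 were close to 1 CPM.

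Cell type lists gave 0 genes past the adjusted threshold. Motor neurons, the cells that ALS affects, were represented by 16 markers with a median log2 fold change of 0.41, of which 15 were positive. Anxa4 was the 1 marker with an unadjusted p under 0.05, where 1.06% of all genes were higher at that p. The summed level of the 16 markers was 1744, 1502 and 2387 CPM in Q33 cords and 2110, 1261 and 1473 CPM in Q22 cords, and these overlap. Chat, which makes acetylcholine, had 22.2, 17.8 and 35.2 CPM in Q33 cords and 22.9, 21.3 and 14.6 CPM in Q22 cords. Q33 replicate 3, the cord with the signal of a female and with lumbar Hox genes, had the highest sum and the highest Chat, and without it the median was 0.16. In bulk tissue, fewer cells of a type and less RNA per cell cannot be told apart.

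Markers of the dorsal horn gave no call without TDP-43. Of 12 markers of its excitatory neurons 0 passed either threshold, with log2 fold changes from -0.43 to 0.08 and a median of -0.12. Lmx1b, a transcription factor of these neurons, had 16.6, 17.1 and 11.7 CPM in Q33 cords and 17.6, 14.9 and 20.5 CPM in Q22 cords. Of 12 inhibitory neuron markers 0 passed and 11 had a negative sign. Lhx1 was the one with an unadjusted p under 0.05, at 2.10, 2.34 and 2.03 CPM in Q33 cords against 2.79, 2.62 and 3.48 CPM in Q22 cords. At that p, 1.08% of all genes were lower.

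Among glia and vessels, medians were 0.10 for 14 astrocyte markers, -0.21 for 15 reactive astrocyte genes, -0.17 for 17 homeostatic microglia markers, -0.05 for 19 myelin genes, 0.04 for 12 precursor markers and 0.03 for 13 endothelial markers. Kdr, the receptor of vascular endothelial growth factor, was the single endothelial gene with an unadjusted p under 0.05, at 21.5, 18.3 and 25.9 CPM in Q33 cords against 10.3, 16.5 and 18.1 CPM in Q22 cords. At that p, 1.06% of all genes were higher. Of immune genes, 15 of 17 MHC genes were negative with a median of -0.28, and 0 passed either threshold. Among 15 complement genes, C3ar1, the receptor of the fragment C3a, had 3.08, 2.34 and 2.68 CPM in Q33 cords against 3.59, 4.94 and 3.98 CPM in Q22 cords, a log2 fold change of -0.62. The medians were 0.06 for 53 cytosolic ribosomal protein genes, 0.01 for 42 nuclear genes of oxidative phosphorylation, 0.01 for 25 proteasome genes and -0.01 for 25 autophagy and lysosome genes.

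Of 6 tested erythroid genes 0 passed (smallest edgeR adjusted p = 1). The 6 had a positive sign, with a median of 1.15, and 3 were higher at an unadjusted p under 0.05, against 1.06% of all genes. Their summed level was 228, 214 and 88.3 CPM in Q33 cords and 86.9, 40.5 and 92.6 CPM in Q22 cords, so the groups overlap through Q33 replicate 3. Hbb-bs, a beta-globin, had 16.7, 19.4 and 9.18 CPM in Q33 cords against 6.71, 5.93 and 6.5 CPM in Q22 cords. Of 5 tested immune infiltrate markers 0 passed, and 4 had a negative sign with a median of -0.31, among them Ptprc, the leukocyte antigen CD45, at -0.31 and the macrophage receptor gene Cd163 at -0.82. The positive one, S100a9, a neutrophil protein, had 2.78, 3.69 and 0.344 CPM in Q33 cords against 0.0945, 0.0494 and 0.964 CPM in Q22 cords, which overlap. Globin genes have near-identical copies, which makes their counts uncertain. The part of blood in the other differences was not tested.

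**Figure D4:**
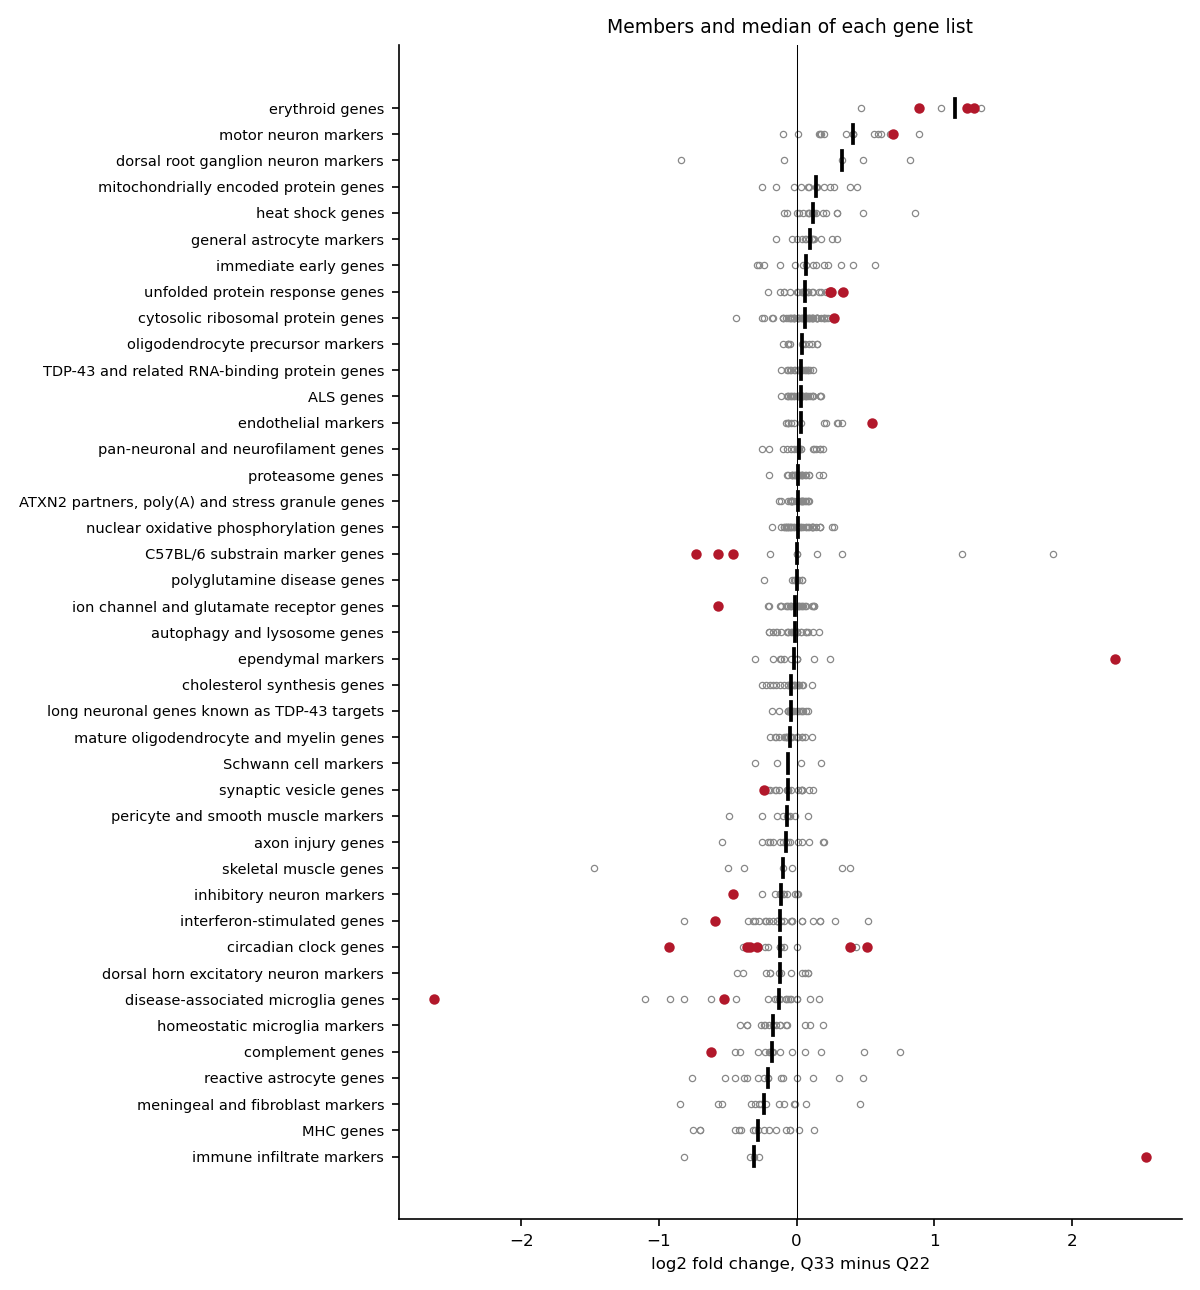
Log2 fold change, Q33 minus Q22, of each tested member of 41 gene lists (circles), with filled red circles for an unadjusted p under 0.05 and a bar at the list's median; lists run from the highest median at the top. Erythroid genes at 1.15 and motor neuron markers at 0.41 have the highest medians of the lists drawn, which leave out the Hox lists (median 4 for groups 10 and 11), the Y-linked genes and Xist (2.13), which mark cord level and sex; most lists lie within 0.2 of 0.

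More genes differed between the tract lengths in the presence of human TDP-43. Between Q33;TDP-43 and Q22;TDP-43 cords, 1376 genes were higher (6.67%) and 1274 lower (6.17%) at an adjusted p under 0.05, so 2650 genes passed (12.8%) where 0 did without TDP-43. Cord level moved with this comparison: the summed level of Hox groups 10 and 11 was 65.1, 103 and 53.2 CPM in Q33;TDP-43 cords against 93, 3.92 and 4.61 CPM in Q22;TDP-43 cords. Reactive astrocyte genes summed to 379, 685 and 638 CPM in Q33;TDP-43 cords against 878, 2156 and 1618 CPM in Q22;TDP-43 cords. With library totals in place of TMM factors, which moved the median of all genes to -0.25, 295 were higher and 3622 lower. Leaving out 1 library gave 719 genes (without Q33;TDP-43 replicate 1) to 3154 (without Q33;TDP-43 replicate 3). The difference between the effects was tested itself: 71 genes (0.344%) passed, 67 with a higher log2 fold change without TDP-43 than with it (0.325%) and 4 with a lower one (0.0194%). All 71 were among the genes called in the TDP-43 knock-ins, whereas 3 had an unadjusted p under 0.05 in Q33 minus Q22, against 2.14% of all genes. The median absolute log2 fold change of the 71 was 0.21 without TDP-43 and 1.88 with it. The 71 were picked for the gap between these same differences. Large values on one side and small ones on the other thus follow in part from that choice. Leaving out 1 library gave from 6 genes (without Q33;TDP-43 replicate 1) to 252 (without Q22;TDP-43 replicate 1) for the difference between the effects.

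The 71 held 3 of the 12 excitatory dorsal horn markers (Lmx1b, Ebf2 and Prrxl1) and 2 of the 12 inhibitory neuron markers (Pdyn and Sst), against 0.344% of all genes, and most of the 71 are on none of the lists. Lmx1b differed by -0.22 without TDP-43 and by -2.77 with it, where it had 2.59, 1.61 and 6.01 CPM in Q33;TDP-43 cords and 21.4, 24.7 and 22.9 CPM in Q22;TDP-43 cords (edgeR adjusted p of the difference = 0.023). Pdyn, the precursor of dynorphin peptides, differed by -0.07 without TDP-43 and by -2.14 with it (adjusted p of the difference = 0.007). The peptide gene Sst gave -0.10 and -1.70, and, of genes on no list and chosen after their values were seen, the apelin receptor gene Aplnr gave -0.34 and -4.49 and the neuromedin U receptor gene Nmur2 -0.31 and -4.09. Esrrg, a nuclear receptor on the list of motor neuron markers, gave 0.01 and 0.83. Mitochondrial ribosomal RNA moved with the TDP-43 comparison, at 28.7%, 26.3% and 23.4% of counts in Q33;TDP-43 cords against 19.3%, 20.1% and 16.7% in Q22;TDP-43 cords, and with these RNAs left out 73 genes passed instead of 71. With cord level and sex as terms 10 passed.

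The direction of the leading genes was partly shared. Of the 10 genes that leaned higher in Q33 without TDP-43, 8 had the same sign with TDP-43, and 3 passed there (Cth, Bend6 and Hspa5). Of the 10 that leaned lower, 7 had the same sign, and 1 passed (Gabra2). Over the 442 genes with an unadjusted p under 0.05 the share with the same sign was 66.5%, and over all genes tested it was 54.1%. Of those 442 genes, 50 had the same sign and also passed with TDP-43. Over all genes tested, 1731 of 20635 did so. These cords share no library with the first comparison, but the spread was estimated over all 18 libraries in 1 fit.

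**Figure D5:**
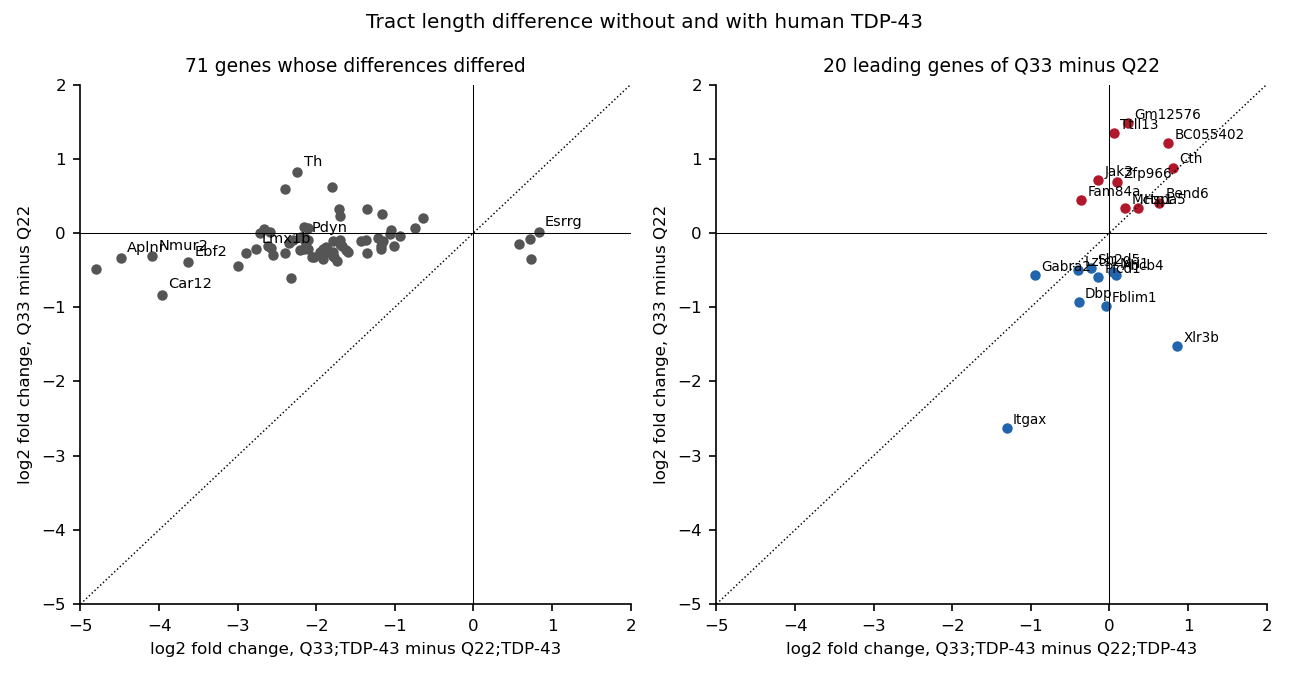
Log2 fold changes of the Q33 minus Q22 difference with human TDP-43 (horizontal) and without it (vertical), for the 71 genes whose differences differed (left) and the 20 leading genes of Q33 minus Q22 (right); the dotted line marks equality. The 71 genes spread along the horizontal axis and stay near 0 on the vertical one, which follows in part from their choice by the gap between these differences.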

How the data were processed

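RNA was extracted with on-column DNase treatment, depleted of ribosomal RNA and sequenced as stranded read pairs of 100 bases on 3 lanes, per the labels' protocols. The deposited values are whole-number read counts per gene, made by the authors with featureCounts 1.6.1 on exons of the GENCODE M19 annotation, stranded, from TopHat alignments to mm10, per the file headers. Trim Galore 0.4.1, TopHat2 and DESeq2 are named in the submitters' processing notes. Each gene's exon length is the authors' value and was not used for tests.

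From these counts, edgeR 4.0.16 (limma 3.58.1, R 4.3.3) was fitted to all 18 libraries with 1 term per genotype, TMM scaling and the default filter on low counts, with two-sided quasi-likelihood tests and Benjamini-Hochberg adjustment over 20635 genes. DESeq2 1.42.0 and the other settings are alternatives. CPM values use TMM factors. Symbols matched 54409 of 54446 gene identifiers. Intervals cover the spread between animals, and the limit for a count of 0 is 3 counts of the library, which covers counting error only. Replicate numbers only name libraries. P-values weigh a difference against the spread between animals within genotypes, estimated over all 18 libraries.

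The named genes are the 10 of smallest p on either side of 0 with at least 1 CPM in a group and, for each list, the 3 of smallest p. Atxn2, Tardbp and the Hox genes of paralog groups 10 to 13 were added to these, and further genes were named after their values were seen. Genes, lists and comparisons were chosen with earlier results of these data known.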

Additional observations from a re-analysis of the deposited data

Results flagged for a closer look

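The tract length difference differed without and with human TDP-43 for 71 genes by edgeR's test of the difference itself. Ebf2, a transcription factor of dorsal horn neurons, is 1 of them: its log2 fold change was -0.39 in Q33 minus Q22 and -3.63 in Q33;TDP-43 minus Q22;TDP-43, a difference of 3.25 (edgeR adjusted p = 0.023). Ebf2 had 17.2, 20.2 and 8.19 CPM in Q33 cords and 17.4, 19.1 and 22.8 CPM in Q22 cords, against 1.5, 1.61 and 4.02 CPM in Q33;TDP-43 cords and 21.7, 33.8 and 31.8 CPM in Q22;TDP-43 cords. Th, the enzyme tyrosine hydroxylase, gave 0.82 without and -2.24 with TDP-43, a difference of 3.07 (edgeR adjusted p = 0.047). Its level was 0.513, 0.764 and 0.689 CPM in Q33 cords and 0.425, 0.346 and 0.335 CPM in Q22 cords, so the difference rests on few reads. Groups of 3 were not searched for single deviating samples.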

How the results depend on the processing

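The count of 0 genes in Q33 minus Q22 stayed at 0 with library totals, RLE factors, mitochondrial ribosomal RNA left out, cord level or sex or both as terms, only the 6 libraries of the contrast, each library left out in turn (0 to 0), and the libraries with Xist left out, a setting chosen after seeing the data. DESeq2 called 1 gene, Dbp. Without the filter on low counts 70 genes were called, 31 higher and 39 lower. The smallest adjusted p there, 2.9e-157, was that of CT010467.1, at 9370, 616 and 676 CPM in Q33 cords and 774, 173 and 388 CPM in Q22 cords, whose edgeR adjusted p with the filter was 1. Its difference rests on Q33 replicate 1, and the cause of the other calls was not tested.

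Between Q33;TDP-43 and Q22;TDP-43 cords, 1678 genes passed with cord level as a term, 1413 with cord level and sex, and 1383 with only those 6 libraries, against 2650. Leaving out 1 library gave 719 (without Q33;TDP-43 replicate 1) to 3154 (without Q33;TDP-43 replicate 3). With library totals 295 were higher and 3622 lower, against 1376 and 1274, and the median of all genes was then -0.25. For the difference between the effects, 163 genes passed with library totals, 838 without the filter, 39 with sex as a term, 10 with cord level and sex, 168 with only the 4 groups, 601 with DESeq2 and 36 without the libraries with Xist, against 71. Leaving out 1 library gave 6 (without Q33;TDP-43 replicate 1) to 252 (without Q22;TDP-43 replicate 1). The cause was not tested.

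No paired analysis was possible because the replicate numbers follow the order of deposit and pair no animals. With 3 animals a group, most 1.5-fold changes were missed in the simulated data (33 of 80 found). Some 2-fold changes were missed too (56 of 80 found). Genes near the limit of a count of 0 have wide intervals.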
